A study of Mus musculus with 10 samples.

Results

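The cytokine genes described here are 10 genes that activated T cells are known to transcribe, namely Ifng, Lta, Tnf, Il2, Il3, Csf2, Il21, Lif, Il4 and Il10. They were chosen by name, and all 10 are found among the 25814 genes of each deposited table. RNA was sequenced from 10 libraries in 5 groups of 2. Splenic CD8+ T cells of adult C57/B6 mice, purified with CD8 microbeads and activated for 1 d with αCD3/CD28 Abs, were sequenced as such (activated T cells), after 1 d more in keratinocyte medium (T cells in medium), or after 1 d with keratinocytes (co-cultured T cells). The study describes the medium of the last 2 groups, called the mixed-medium groups here, as a mix of low-Ca++ keratinocyte SFM and X-VIVO 15 medium. For the activated T cells the labels name no culture beyond the day of activation, whereas a legend of the paper places its reference T cells in X-VIVO medium during 1 d, and it is not clear whether this is the day of activation or a further one. A fold against activated T cells therefore spans a change of medium and possibly a further day of culture. By the labels it also spans the end of the 1 d of activation with αCD3/CD28 Abs. These differences cannot be told apart. Keratinocytes, grown from tail skin of adult mice, were cultured alone or together with such activated CD8+ T cells, which were washed off before lysis. The co-culture lasted 1 d by the labels and the paper, but 1 h by the deposited design text. Replicate numbers are those of the labels, and the unnumbered libraries of both mixed-medium groups are called a and b. The labels do not say that the 2 libraries of a group came from separate mice, so that p-values measure only the spread between these libraries.

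T cells transcribe cytokine genes in bursts after their antigen receptor and CD28 are engaged. Calcium signals bring NFAT factors to the nucleus, where they act on cytokine promoters together with AP-1 and NF-κB. Most of these mRNAs are short-lived, since AU-rich elements in their 3′ UTRs recruit proteins that start their decay. IFN-γ, lymphotoxin and TNF act on neighbouring cells, including keratinocytes. IL-2, IL-21 and IL-4 act largely on lymphocytes, while IL-3 and GM-CSF act on myeloid cells, and IL-10 dampens inflammation.

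Several of the genes are neighbours. On the GRCm38 coordinates of the tables, Tnf (ENSMUSG00000024401, chromosome 17, 35199381 to 35202007) and Lta (ENSMUSG00000024402, 35203165 to 35205351) lie 1157 bases apart. Csf2 (ENSMUSG00000018916, chromosome 11, 54247271 to 54249667) and Il3 (ENSMUSG00000018914, 54265303 to 54267277) are 15635 bases apart. Il4 (ENSMUSG00000000869) lies on the same chromosome from 53602982 to 53618669, and so does Lif (ENSMUSG00000034394, 4257557 to 4272514). Il2 (ENSMUSG00000027720, chromosome 3, 37120523 to 37125959) and Il21 (ENSMUSG00000027718, 37222759 to 37232636) are 96799 bases apart. Ifng (ENSMUSG00000055170) lies on chromosome 10 from 118441046 to 118445892, and Il10 (ENSMUSG00000016529) on chromosome 1 from 131019845 to 131024974.

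The promoters of the 4 genes whose RNA fell in both mixed-medium T-cell groups follow here, since these genes moved together. Each stretch holds 250 bases before and 50 bases from the start site of RefSeq (GRCm38.p6), written 5′ to 3′ on the strand of the gene. Capitals mark the core of NFAT sites, GGAAA, on either strand, where TTTCC is its reverse complement.

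Ifng, chr10:118440796-118441095, plus strand: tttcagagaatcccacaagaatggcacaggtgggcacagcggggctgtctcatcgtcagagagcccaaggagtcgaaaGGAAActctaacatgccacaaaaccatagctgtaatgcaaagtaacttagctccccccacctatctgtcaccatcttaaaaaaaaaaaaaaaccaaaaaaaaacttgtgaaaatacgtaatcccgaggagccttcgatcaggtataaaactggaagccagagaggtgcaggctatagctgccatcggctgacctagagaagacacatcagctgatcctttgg
Il3, chr11:54267230-54267529, minus strand: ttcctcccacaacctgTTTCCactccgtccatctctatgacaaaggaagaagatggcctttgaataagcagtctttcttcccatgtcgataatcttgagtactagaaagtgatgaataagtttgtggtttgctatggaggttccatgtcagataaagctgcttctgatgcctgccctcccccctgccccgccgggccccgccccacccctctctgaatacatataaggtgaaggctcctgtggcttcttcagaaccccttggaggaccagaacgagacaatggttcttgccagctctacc
Lta, chr17:35205302-35205601, minus strand: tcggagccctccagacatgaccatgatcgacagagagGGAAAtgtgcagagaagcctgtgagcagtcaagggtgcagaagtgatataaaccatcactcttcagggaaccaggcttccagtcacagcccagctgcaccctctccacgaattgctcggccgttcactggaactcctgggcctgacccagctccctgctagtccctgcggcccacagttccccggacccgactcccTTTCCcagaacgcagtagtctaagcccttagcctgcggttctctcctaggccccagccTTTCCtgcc
Lif, chr11:4257318-4257617, plus strand: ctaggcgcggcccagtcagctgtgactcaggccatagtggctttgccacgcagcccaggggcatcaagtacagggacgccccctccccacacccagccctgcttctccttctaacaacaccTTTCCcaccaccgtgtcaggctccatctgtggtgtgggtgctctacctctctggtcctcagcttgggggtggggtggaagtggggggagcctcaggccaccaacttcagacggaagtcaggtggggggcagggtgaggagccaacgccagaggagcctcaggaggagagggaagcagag

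RefSeq gave such windows for 9 of the 10 genes (none for Il10, 2 for Il4), and GGAAA was found in 10 of these 10 windows. It is a short motif that 61.3% of all 32851 promoter windows also held. The AP-1 site TGANTCA was in 1 of the 10 windows (Lif) and in 7.81% of all windows, and the NF-κB decamer in 3 (Il21, Lta and Tnf) and in 18.4%. The core of the CD28 response element, ANTTCCA, was in 4 windows (Il2, Il21, Lif and Lta) and in 17.3% of all, and the TATA box motif TATAAA in 4 (Ifng, Il2, Lta and Tnf) and in 13.6%. Relative to the start site, TATAAA began at -30 in Ifng, -31 in Il2 and -29 in Tnf, but at -167 in Lta. All motifs were sought on both strands, and ANTTCCA can overlap GGAAA on the opposite strand. These matches describe letters only, and no factor binding was measured in these data.

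The 3′ UTRs of the genes were dense in the AU-rich pentamer ATTTA, the core of AU-rich elements. For 6 genes the 30 bases of the 3′ UTR with the most pentamers are shown (GRCm38, pentamers in capitals). They comprise the 4 genes that fell and the genes with the most copies of the longer TATTTAT.

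Ifng, chr10:118445335-118445364, plus strand: ATTTAttaatATTTAaaactATTTAtatgg
Il3, chr11:54265307-54265336, minus strand: ctttatgccatcaaatgtcttatcaATTTA
Lta, chr17:35203407-35203436, minus strand: ATTTAtggagagaaaagttaagttATTTAt
Lif, chr11:4272414-4272443, plus strand: ATTTAttcaatgtcatATTTAaaatATTTA
Csf2, chr11:54247320-54247349, minus strand: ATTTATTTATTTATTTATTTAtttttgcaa
Tnf, chr17:35199676-35199705, minus strand: ATTTAttATTTATTTAttATTTATTTAttt

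The pentamer was counted on the sense strand with overlaps in 1 annotated 3′ UTR for each of 20935 genes. Its density was above the median of all these genes (1.23 per kb) for each of the 10 cytokine genes, with a median of 9.70 per kb. It was highest for Csf2 (28.4 per kb, more than in 99.9% of genes) and Il4 (19.2 per kb in a 3′ UTR of only 104 bases), and lowest for Lif (2.20 per kb, 67.5%) and Il21 (3.49 per kb, 83.4%). The heptamer TATTTAT, which contains the pentamer, was present in 9 of the 10 genes and in 27.5% of all genes. Csf2 held 9 and Tnf 8 copies, whereas the annotated 3′ UTR of Il3, 101 bases long, held none.

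**Figure D1:**
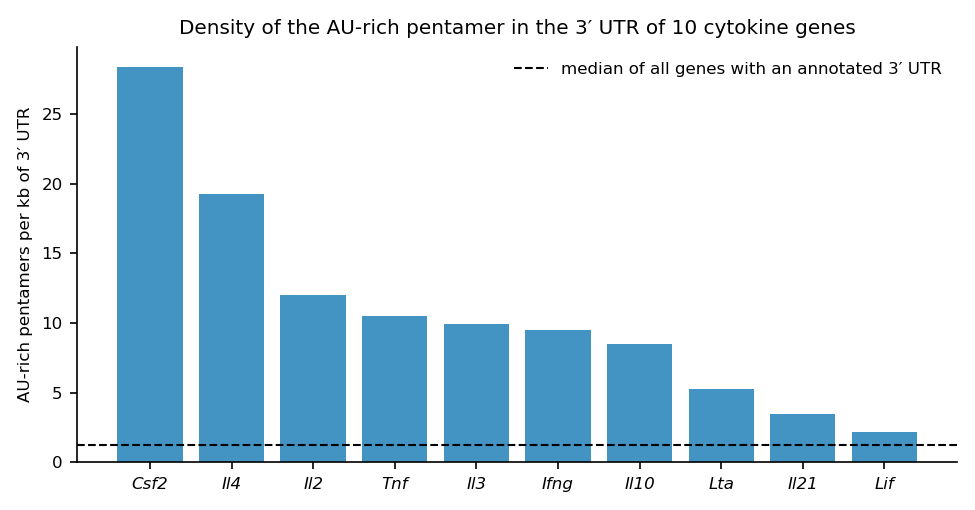
The bars show the number of AU-rich pentamers per kb of annotated 3′ UTR for each of the 10 cytokine genes, and the dashed line the median of 20935 genes (1.23 per kb). All 10 bars end above the line, from 2.20 per kb for Lif to 28.4 per kb for Csf2.

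For each library the authors deposited the reads counted on exons and RPKM values, which scale these reads to exon length and mapped reads. The libraries held 12864931 to 18019609 exon reads, and for a gene with 1 kb of exons 3 reads were worth 0.158 to 0.212 RPKM. Intervals and floors given from read numbers cover counting error only, since no molecular identifiers were used and PCR copies count as reads. Log2 fold changes and p-values are those of edgeR's quasi-likelihood test, fitted on the 6 T-cell libraries (11863 genes tested) and apart on the 4 keratinocyte libraries (12515 genes), with Benjamini-Hochberg adjustment over all genes tested, and standard errors are given as SE. A gene is said to rise or fall where its adjusted p is under 0.05. With 2 libraries per group an exact permutation test of a single gene cannot go below p = 0.33.

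The T-cell label was held against marker genes. Cd8a was at 110.0 to 334 RPKM in the 6 T-cell libraries. It was summed with Cd8b1 and with Cd3d, Cd3e and Cd3g, which CD4 T cells share. These 5 markers summed to 813 and 958 RPKM in activated T cells. The sum ranged from 1661 to 2140 RPKM in T cells in medium and from 1418 to 2066 RPKM after co-culture. In activated T cells, replicate 2 held less Cd8a (110.0 against 176 RPKM) and less Cd8b1 (141 against 277 RPKM) than replicate 1. Other cells were present in the preparations. Cd4 was at 16.8 RPKM in replicate 1 and at 102 RPKM in replicate 2 of the activated T cells, and at 62.0 to 75.9 RPKM in the mixed-medium groups. The 4 B cell markers summed to 29.4 and 31.0 RPKM in activated T cells, to 44.2 and 92.3 RPKM in medium and to 16.6 and 27.2 RPKM after co-culture. The myeloid markers, mostly Lyz2, summed to 11.3 and 62.7 RPKM in activated T cells (replicates 1 and 2) and to 32.6 to 42.9 RPKM in the mixed-medium libraries. T-cell transcripts were in turn found in all 4 keratinocyte libraries, also in those labelled as keratinocytes alone (Cd3g at 34.8 to 247 RPKM). The part of other cells in these results was not tested. In bulk RNA, fewer cells of a type and less RNA per cell cannot be told apart.

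Of the 10 genes, 4 fell from activated T cells to T cells in medium, namely Ifng, Il3, Lif and Lta, and 0 rose. Among all genes tested, 4.22% fell and 2.32% rose. The same 4 genes, and no other of the 10, fell from activated to co-cultured T cells, where 5.72% of all genes fell and 4.59% rose. Both comparisons use the same 2 libraries of activated T cells. For the 10 genes the median log2 fold change was -2.81 in medium and -3.10 in co-culture, while that of all genes tested was -0.01 in both. Over all genes, 544 rose and 678 fell in co-culture, but with library size in place of TMM this split was 396 to 762, and the median of all genes shifted to -0.17 in co-culture and -0.13 in medium. By RPKM, both libraries of the mixed-medium group lay below both of activated T cells for 7 of the 10 genes in either comparison, against 28.3% (medium) and 28.8% (co-culture) of all genes with reads.

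Ifng encodes IFN-γ, a cytokine by which CD8+ T cells act on epithelial cells. It was at 613 and 589 RPKM in the 2 libraries of activated T cells, at 5.95 and 7.20 RPKM in T cells in medium and at 3.26 and 6.20 RPKM in co-cultured T cells. Both activated libraries were thus far above the 4 mixed-medium ones, while medium and co-culture overlapped. The mean of activated T cells (601 ± 16.5 RPKM, SD, n = 2) was 91.4 fold that of T cells in medium (6.57 ± 0.883 RPKM) and 127 fold that of co-cultured T cells (4.73 ± 2.08 RPKM). The log2 fold changes were -6.36 (SE 0.49, adjusted p = 0.00345) for medium and -6.77 (SE 0.50, adjusted p = 0.00162) for co-culture with edgeR. Ifng passed in all 16 alternatives of either comparison. Ifng alone gave 12440 and 10253 exon reads in activated T cells, against 60 to 150 reads in each mixed-medium library.

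Measured against Cd3g, a chain of the T-cell receptor complex, Ifng was at 445% and 171% of the Cd3g RPKM in activated T cells (replicates 1 and 2). In the mixed-medium T-cell libraries it was at 0.641% to 1.48% of Cd3g. Cd3g itself was at 138 and 344 RPKM in activated T cells and at 420 to 513 RPKM in the mixed-medium libraries. It is shared by CD4 T cells, and Cd8a was ordered the other way in the activated libraries (176 and 110.0 RPKM). The difference between the 2 shares of activated T cells therefore depends on the gene chosen as reference.

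Lta encodes lymphotoxin α, a ligand of TNF receptors made by lymphocytes. It was at 96.5 and 44.2 RPKM in activated T cells, at 5.66 and 6.71 RPKM in medium and at 8.17 and 7.36 RPKM in co-culture. Both activated libraries lay above all 4 mixed-medium ones, and both co-cultured libraries lay above both in medium. Lta fell by 3.33 on the log2 scale in medium (SE 0.46, adjusted p = 0.0138), against 2.97 in co-culture (SE 0.45, adjusted p = 0.00941) with edgeR. The call in medium was lost without replicate 1 of the activated T cells (adjusted p = 0.0617) or without library a or b in medium (0.0730 and 0.0750), and that in co-culture without replicate 1 of the activated T cells (0.0501).

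Tnf, the neighbour of Lta, encodes the inflammatory cytokine TNF-α. It was at 5.26 and 3.43 RPKM in activated T cells, at 0.237 and 1.31 RPKM in medium and at 0.200 and 1.47 RPKM in co-culture. The activated libraries did not overlap with the mixed-medium ones, but in each mixed-medium group library b was several fold above library a. The log2 fold changes of -2.28 in medium (SE 1.16, adjusted p = 0.269), against -2.11 in co-culture (SE 1.16, adjusted p = 0.274) did not exceed this spread with edgeR.

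Il3 encodes interleukin 3, a growth factor of mast cells and myeloid precursors. It gave 147 and 195 exon reads in activated T cells, which correspond to 13.9 and 21.5 RPKM, and 83 of its reads spanned exon junctions. In the other 8 libraries, keratinocytes included, no read fell on Il3. With a floor of 3 reads over the group, Il3 was at least 119 fold lower in T cells in medium and at least 107 fold lower in co-culture. The edgeR adjusted p was 0.0191 in medium and 0.0127 in co-culture. The call in medium was lost whenever 1 of its 4 libraries was left out (adjusted p = 0.0615 to 0.0751), and that in co-culture without replicate 2 of the activated T cells (0.0511).

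Csf2 encodes GM-CSF and lies next to Il3. It gave 87 and 109 exon reads in activated T cells (6.47 and 9.46 RPKM), 2 and 0 reads in medium and 0 and 4 reads in co-culture. The groups did not overlap, and the mixed-medium libraries were at or near 0. By pooled reads the level was 103 fold lower in medium (95% exact interval for counting error 28.04 to 854) and 46.1 fold lower in co-culture (17.7 to 171). In spite of this size the edgeR adjusted p was 0.0587 in medium and 0.0680 in co-culture. Across the alternatives it ranged from 0.000363 to 0.208 and from 0.00186 to 0.205. DESeq2 gave 0.00146 and 0.00456, and a block for the number series of the table names 0.0227 and 0.0282.

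Lif encodes leukemia inhibitory factor, a cytokine of the IL-6 family. It was at 14.4 and 9.08 RPKM in activated T cells, at 0.447 and 0.544 RPKM in medium and at 0.583 and 0.576 RPKM in co-culture. All 4 mixed-medium libraries were close to each other and below both activated libraries. Lif fell by 4.40 on the log2 scale in medium (SE 0.47, adjusted p = 0.0105), against 4.13 in co-culture (SE 0.46, adjusted p = 0.00525) with edgeR. The call in medium was lost without library b in medium (adjusted p = 0.0543).

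Il2 encodes the growth factor of activated T cells, and its level was low throughout. It gave 42 and 30 exon reads in activated T cells (2.18 and 1.82 RPKM), 0 and 19 in medium and 3 and 3 in co-culture. Activated T cells lay above the other groups, but library b in medium held most of the mixed-medium reads. Of the 97 Il2 reads in T-cell libraries only 52.6% mapped uniquely, and none of the mixed-medium libraries had a read on an exon junction. The log2 fold changes were -1.82 in medium (SE 1.63, adjusted p = 0.546), against -3.24 in co-culture (SE 1.77, adjusted p = 0.271) with edgeR.

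Il21 encodes a cytokine that helps B cells and sustains CD8+ T cells. It was at 1.60 and 11.2 RPKM in activated T cells, at 2.13 and 3.52 RPKM in medium and at 3.18 and 2.55 RPKM in co-culture. The 2 activated libraries stood on either side of the mixed-medium ones. The library with more Il21, replicate 2, was also the one with more Cd4 (102 against 16.8 RPKM) and Lyz2 (57.4 against 10.6 RPKM), and the part of other cells in this was not tested. The log2 fold changes were -1.05 and -1.01 (adjusted p = 0.482 and 0.465 with edgeR), and turned to 1.04 and 1.08 without replicate 2 of the activated T cells.

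Il4 and Il10, typical products of helper and regulatory T cells, did not follow the 4 genes that fell. Il4 gave 4 and 20 exon reads in activated T cells, 21 and 5 in medium and 6 and 23 in co-culture, so that the groups overlapped (log2 fold changes 0.09 and 0.53, adjusted p = 0.987 and 0.858 with edgeR). Il10 was at 2.00 and 1.17 RPKM in activated T cells, at 4.10 and 5.04 RPKM in medium and at 4.56 and 4.32 RPKM in co-culture. It was the only 1 of the 10 genes whose mixed-medium libraries all lay above both activated libraries, as 19.2% (medium) and 20.7% (co-culture) of all genes with reads did. Its mean was 2.89 and 2.81 fold higher, but the log2 fold changes of 1.69 and 1.69 (SE 0.60 in both) did not pass after adjustment (adjusted p = 0.126 and 0.110 with edgeR).

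**Figure D2:**
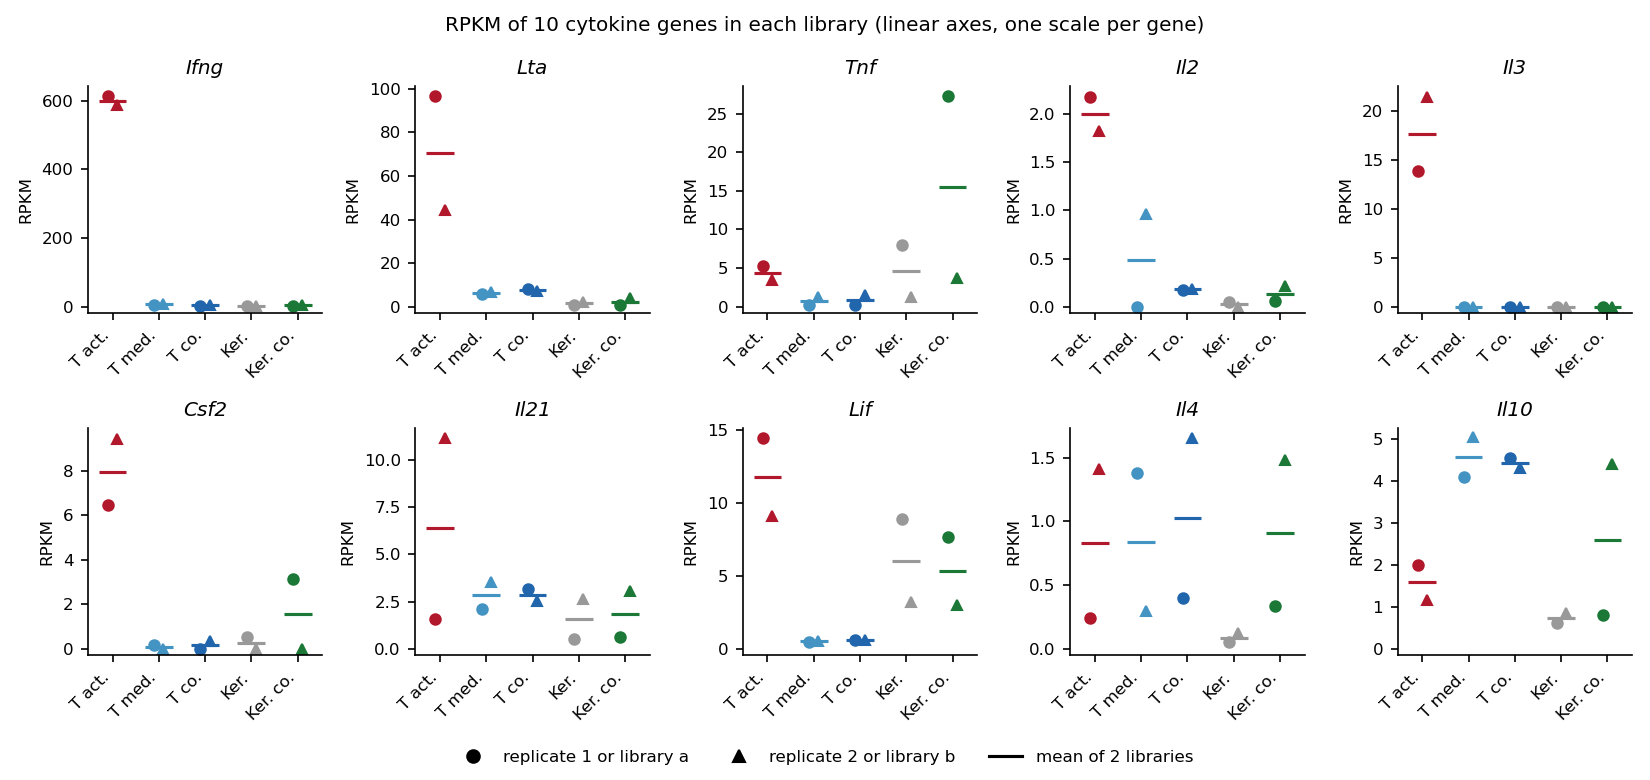
Each panel shows the RPKM of 1 gene in the 10 libraries on a linear axis of its own, with 2 points and their mean (line) for activated T cells (T act.), T cells in medium (T med.), co-cultured T cells (T co.), keratinocytes alone (Ker.) and co-cultured keratinocytes (Ker. co.). Ifng, Lta and Il3 stand out in activated T cells, Il10 is higher in the 4 mixed-medium T-cell libraries, and Tnf reaches its highest level, 27.2 RPKM, in a co-cultured keratinocyte library.

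Co-culture with keratinocytes was then compared with medium alone. None of the 10 genes passed the test of co-cultured against medium-kept T cells, where 0.261% of all genes did (31 genes, all higher in co-culture). With an unadjusted p under 0.05 edgeR gave 0 of the 10 genes and 409 of all genes. After adjustment, DESeq2, limma and each other alternative also gave 0 of the 10. Il3 had no read in either group. For Ifng the log2 fold change was -0.41 (95% interval -1.35 to 0.53), for Lta 0.37 (-0.62 to 1.35), for Lif 0.26 (-0.74 to 1.26) and for Il10 -0.00 (-1.33 to 1.32). For genes with few reads the intervals were wider, up to -5.38 to 2.54 for Il2, so that even large differences were not detectable at this depth and number of libraries. Both libraries of co-cultured T cells lay above both in medium for Lta and Lif, which 13.4% of all genes did. Keratinocyte transcripts were found in the co-cultured T cells, where 6 keratinocyte markers summed to 67.7 and 19.3 RPKM against 0.5 to 1.2 RPKM in the other T-cell libraries (Krt15 was at 0 in all 6). Among these markers Krt14 passed against medium, as 1 of the 31 genes (log2 fold change 5.68, adjusted p = 0.0449 with edgeR), but not under every alternative. Against activated T cells, Krt5 and Krt14 rose in co-culture (log2 fold changes 4.52 and 6.47, adjusted p = 0.0193 and 0.00693 with edgeR). The part of keratinocyte RNA was not tested.

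**Figure D3:**
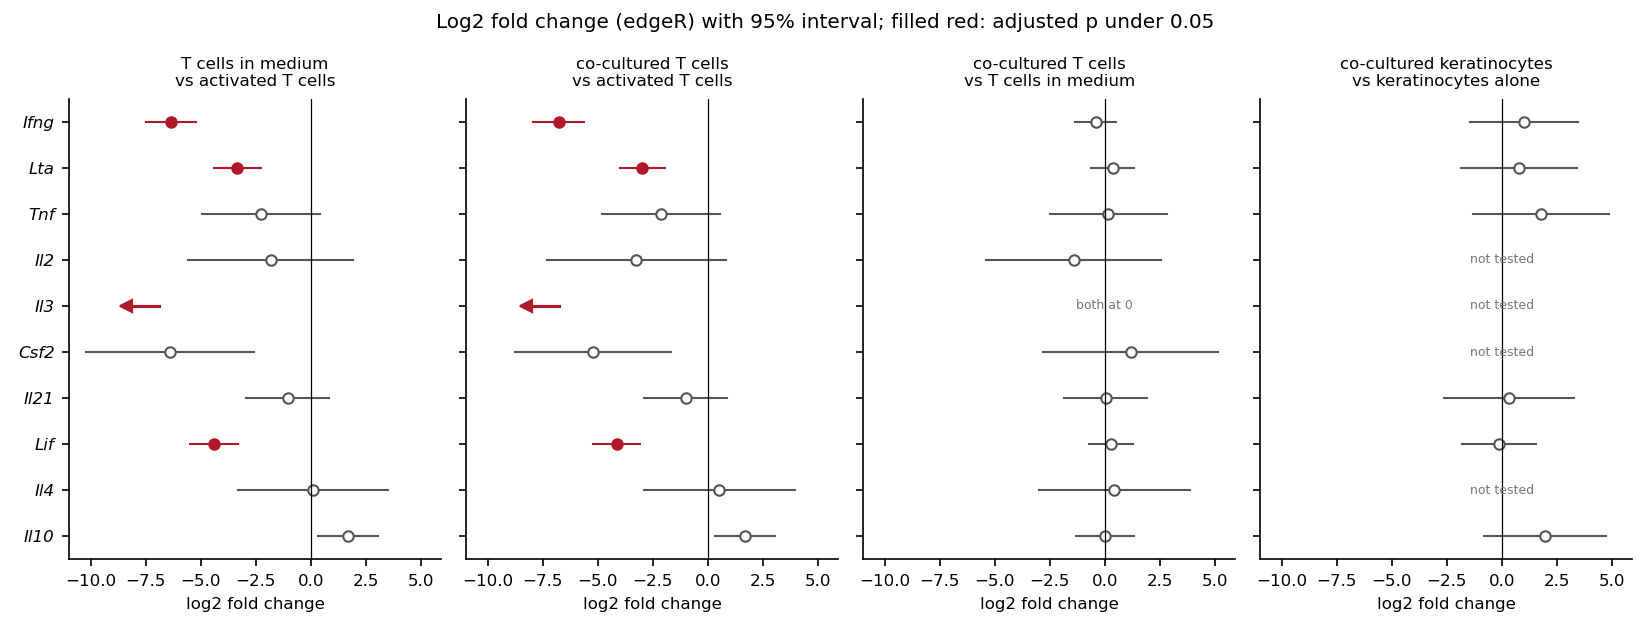
Points show the log2 fold change of each gene and lines its 95% interval in 4 comparisons, and filled red points passed an adjusted p of 0.05 (edgeR). Il3, without reads in the mixed-medium T cells, is drawn as an arrow from its bound (at least 119 and 107 fold lower). The 4 genes that fell are the same in both panels against activated T cells, whereas all intervals in the other 2 panels cross 0.

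In the keratinocyte libraries the levels of these genes have to be read beside transcripts of T cells and other immune cells. In replicates 1 and 2 of keratinocytes alone Cd3g reached 34.8 and 126 RPKM, against 44.2 and 247 RPKM after co-culture, and Cd4 at 11.4 and 43.5 RPKM and at 15.0 and 84.5 RPKM, while Cd8a stayed between 0.118 and 1.16 RPKM. T-cell RNA was thus present also in the libraries labelled as keratinocytes alone, and it was higher in replicate 2 of both groups. The myeloid markers, mostly Lyz2, were ordered likewise. They summed to 9.16 and 31.9 RPKM alone and to 10.1 and 44.6 RPKM after co-culture. The 6 keratinocyte markers summed to 11121 to 15739 RPKM.

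None of the 6 cytokine genes that could be tested (Ifng, Lta, Tnf, Il10, Il21 and Lif) passed between co-cultured keratinocytes and keratinocytes alone, as 0.0% of all genes did. At an unadjusted p under 0.05 edgeR gave 0 of the 6 and 901 of all genes, while DESeq2 called 186 of all genes after adjustment and 0 of the 6. Il2, Il3, Csf2 and Il4 had too few reads to be tested. Both co-cultured libraries lay above both alone for Il2 and Il4, which 17.1% of all genes did, with at most 24 exon reads.

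Keratinocytes alone held 1.26 and 2.63 RPKM of Ifng, and co-cultured ones 1.36 and 5.92 RPKM. The libraries overlapped, and replicate 2 was the higher one in both groups (log2 fold change 1.01, SE 0.96, adjusted p = 0.736 with edgeR). As a share of Cd3g, Ifng was at 3.64% and 2.08% alone and at 3.08% and 2.40% after co-culture. Lta, at 0.838 and 2.08 RPKM alone and 0.856 and 3.77 RPKM with T cells, was at 1.53% to 2.41% of Cd3g in these libraries. Il21 was likewise higher in replicate 2 of both groups (2.66 against 0.50 RPKM alone, 3.05 against 0.604 RPKM in co-culture). Il10 was at 0.603 and 0.852 RPKM alone and 0.804 and 4.40 RPKM with T cells (log2 fold change 1.95, SE 1.07, adjusted p = 0.658). The part of the RNA of T cells and other immune cells in these levels was not tested.

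Tnf, Lif and Csf2 were ordered the other way, with more RNA in replicate 1, the replicate with less Cd3g. Tnf was at 8.004 and 1.25 RPKM alone and 27.2 and 3.77 RPKM with T cells, more than in any T-cell library for replicate 1. Within each replicate number it was 3.4 and 3.01 fold higher after co-culture, but the spread between the replicates was larger (log2 fold change 1.78, SE 1.19, adjusted p = 0.672 with edgeR). Lif was at 8.90 and 3.19 RPKM alone and 7.68 and 2.98 RPKM with T cells, within a factor of 0.864 and 0.934 of each other (log2 fold change -0.12, 95% interval -1.81 to 1.57, adjusted p = 0.951). These Lif levels lay between activated T cells and the mixed-medium T-cell groups, and did not overlap with either. Csf2 gave 8 and 0 exon reads alone and 38 and 0 in co-culture, so that all of its 46 reads came from replicate 1.

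**Figure D4:**
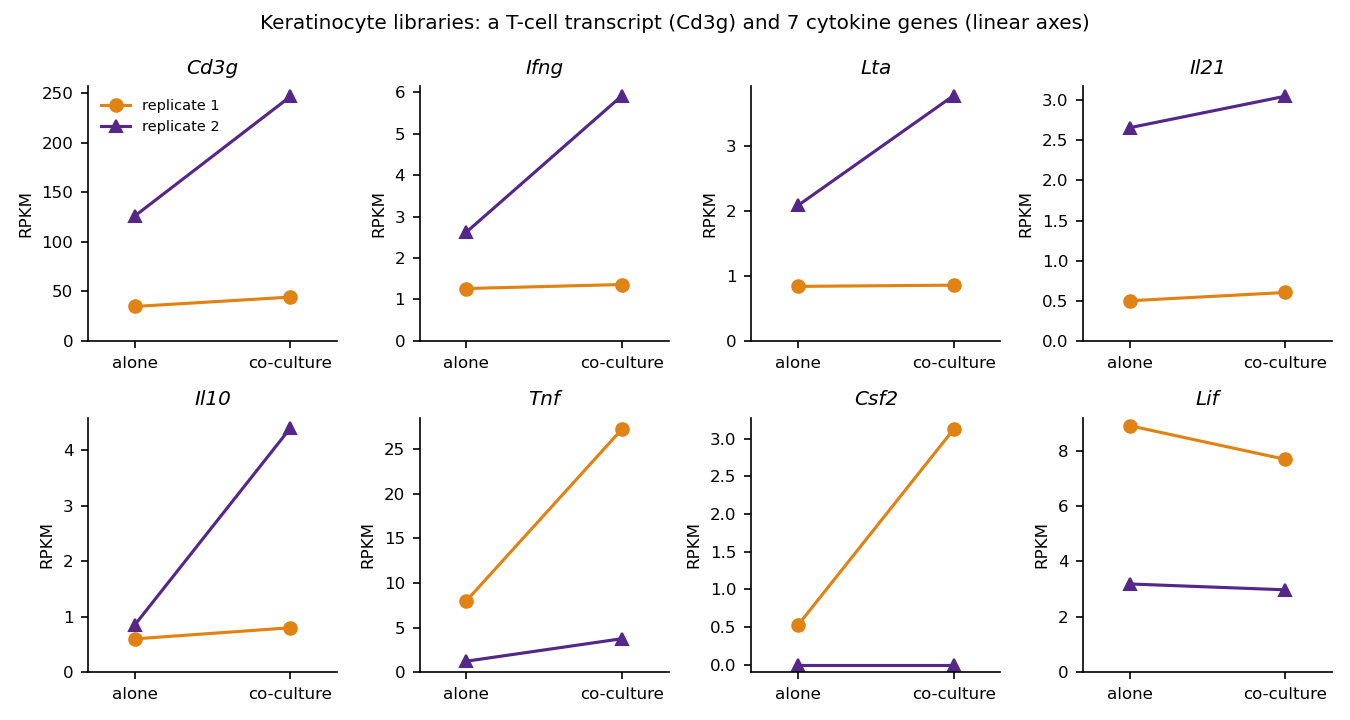
RPKM of Cd3g, a T-cell transcript, and of 7 cytokine genes in keratinocytes alone and after co-culture, with lines joining libraries of the same replicate number (linear axes). Ifng, Lta, Il21 and Il10 are higher in replicate 2, as is Cd3g, whereas Tnf, Csf2 and Lif are higher in replicate 1.

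The order of levels over the 5 groups was described from mean RPKM. Such orders were not counted over all genes, so that the numbers describe the 10 genes only. Activated T cells held the highest mean for 7 of the 10 genes (Ifng, Il2, Il3, Csf2, Lta, Il21 and Lif), and the same 7 after rescaling by TMM factors or with uniquely mapped reads. For 6 of them both activated libraries lay above every library of the group next in order, while for Il21 they overlapped with it. Tnf was highest in co-cultured keratinocytes (15.5 ± 16.6 RPKM, SD, n = 2), Il10 in T cells in medium (4.57 ± 0.666 RPKM) and Il4 in co-cultured T cells (1.03 ± 0.886 RPKM), each without separation from the group next in order.

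Outside the list, the genes whose RPKM followed Ifng most closely over the 10 libraries were Ctsz, which encodes the protease cathepsin Z (Pearson r = 0.983 of log2(RPKM + 1)), Nr4a3, which encodes a nuclear receptor induced by T-cell receptor signals (0.981), and Trmt10c, which encodes a mitochondrial tRNA methyltransferase (0.979). For Il2 they were Galk1, which encodes galactokinase (0.964), Psmg2, a proteasome assembly chaperone (0.964), and Mrps12, a protein of the mitochondrial ribosome (0.960). They were chosen as the highest of 9294 genes, and the 10 points share their libraries and groups, so that these values are a description. Nr4a3 was at 38.5 and 23.5 RPKM in activated T cells and at 0.630 to 1.87 RPKM in the mixed-medium T cells.

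Receptors for these cytokines were listed as well (18 genes). Of 17 tested, 1 fell and 1 rose in medium, and 1 fell and 2 rose in co-culture, with a median log2 fold change of 0.43 and 0.78. Of all genes tested, 4.22% fell and 2.32% rose in medium, and 5.72% fell and 4.59% rose in co-culture. Counts of 1 or 2 therefore say little about the list as a whole. Il2ra, the α chain of the IL-2 receptor, was at 105 and 67.0 RPKM in activated T cells, at 8.89 and 6.98 RPKM in medium and at 11.4 and 10.1 RPKM in co-culture. Both activated libraries were above the mixed-medium ones, and Il2ra fell by 3.29 (SE 0.34, adjusted p = 0.00991) and 2.80 (SE 0.33, adjusted p = 0.00540) on the log2 scale with edgeR. The call in medium was lost without library b in medium (adjusted p = 0.0667), and both calls with all 10 libraries in the fit (0.0704 and 0.0856). Tnfrsf1a, a receptor for TNF and lymphotoxin, was at 5.45 and 6.17 RPKM in activated T cells and at 13.5 to 21.3 RPKM in the mixed-medium libraries. Its log2 fold changes were 1.42 in medium (adjusted p = 0.0482 with edgeR) and 1.95 in co-culture (adjusted p = 0.0148). The call in medium was lost with library size in place of TMM (0.0636), with only the groups compared (0.0618) and whichever of the 6 T-cell libraries was left out (0.0577 to 0.219), and that in co-culture without replicate 1 of the activated T cells (0.0893). Il10rb, a chain of the IL-10 receptor, rose in co-culture only by the threshold (log2 fold change 1.53, adjusted p = 0.0394, against 1.44 and 0.0573 in medium), and the difference between the 2 mixed-medium groups was 0.08 (95% interval -0.75 to 0.92). The Il10rb call was lost with library size in place of TMM (adjusted p = 0.0518), with only the groups compared (0.0618) and without any 1 of the 6 T-cell libraries except replicate 2 of the activated T cells (0.0518 to 0.199). Ifngr1, which encodes the ligand-binding chain of the IFN-γ receptor, was at 22.1 and 68.7 RPKM in activated T cells and at 96.6 to 169 RPKM in the mixed-medium libraries. It did not pass in medium (log2 fold change 1.52, adjusted p = 0.121 with edgeR) and narrowly missed in co-culture (2.02, adjusted p = 0.0502).

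Of 13 other cytokine genes that T cells can transcribe, 12 were tested. None passed in medium, where 4.22% of all genes fell and 2.32% rose. In co-culture 1, Osm, fell, as 5.72% of all genes did. The median log2 fold change was -3.07 in medium and -1.98 in co-culture, and -2.63 in medium with the 5 genes without reads there (Il9, Il17a, Il17f, Il22 and Il24) set to a floor of 3 reads. Osm, which encodes oncostatin M, was at 7.07 and 10.8 RPKM in activated T cells and at 1.21 to 2.05 RPKM in the mixed-medium libraries (log2 fold changes -2.01, adjusted p = 0.0523, and -2.28, adjusted p = 0.0289, with edgeR). Its call was lost without either library of activated T cells (0.0616 and 0.0844), without co-cultured library b (0.133) and with all 10 libraries in the fit (0.270). The most abundant of these genes, Ltb, encodes the partner of lymphotoxin α on the cell surface. It was at 70.4 and 228 RPKM in activated T cells, at 336 and 414 RPKM in medium and at 269.6 and 267 RPKM in co-culture, but did not pass.

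Transcription factors of T-cell lineages did not pass the test for any of 10 genes in either comparison, with median log2 fold changes of 0.16 and -0.12. DESeq2 called 1 of them, Eomes. Stat4, Stat6 and Tbx21, which acts on Ifng in CD8+ and helper T cells, were among the highest. Tbx21 was at 44.3 and 19.5 RPKM in activated T cells and at 13.1 to 16.9 RPKM in the mixed-medium libraries (adjusted p = 0.137 and 0.221 with edgeR). Eomes was at 11.7 and 6.72 RPKM and at 0.795 to 3.30 RPKM (adjusted p = 0.0932 and 0.0860). For both genes the groups did not overlap, but 28.3% (medium) and 28.8% (co-culture) of all genes with reads also lay below activated T cells.

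Among 7 genes for proteins that act on AU-rich or stem-loop elements of cytokine mRNAs, 1 rose and 1 fell in either comparison. Of all genes tested, 2.32% rose and 4.22% fell in medium, and 4.59% rose and 5.72% fell in co-culture. Zfp36l2, of the tristetraprolin family that promotes decay, was at 39.5 and 48.5 RPKM in activated T cells and at 87.1 to 159.6 RPKM in the mixed-medium libraries (log2 fold changes 1.61, adjusted p = 0.0361, and 1.34, adjusted p = 0.0472, with edgeR). With library size in place of TMM it did not pass in either (adjusted p = 0.0520 and 0.0761). In co-culture the call was also lost by limma with a pseudocount of 1 or 0.1, on uniquely mapped reads and with only the groups compared (0.0522 to 0.0600). Elavl1, which encodes HuR, a protein that stabilizes AU-rich mRNAs, was at 38.3 and 30.6 RPKM in activated T cells and at 8.49 to 12.5 RPKM in the mixed-medium libraries (log2 fold changes -1.52, adjusted p = 0.0307, and -1.75, adjusted p = 0.0148). Both activated libraries lay above all 4 mixed-medium ones. The median of the 7 genes was -0.29 in medium and -0.18 in co-culture. The other genes of the list did not pass. Their log2 fold changes in medium and co-culture were -1.15 and -1.33 for Rc3h1, -0.17 and -0.38 for Rc3h2 and -0.29 and -0.18 for Zc3h12a. They were -0.39 and 0.70 for Zfp36 and -0.01 and 0.22 for Zfp36l1. An effect of these proteins on the cytokine mRNAs was not tested. The calls for Zfp36l2 and Elavl1 in medium were lost without any 1 library of activated T cells or of T cells in medium (adjusted p = 0.0562 to 0.191). In co-culture, Zfp36l2 was lost without any 1 of the 6 T-cell libraries except library a in medium (0.0560 to 0.216), and Elavl1 without replicate 1 of the activated T cells or either co-cultured library (0.0558 to 0.0784).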

How the data were processed

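RNA of 10 libraries was sequenced by the authors as single-end reads and processed with the CLC Genomics Workbench at its default settings for RNA-Seq. The genome build, GRCm38, is also named in the submitters' processing notes, whereas the annotation release and the use of strand are not given in the sources used here. The authors deposited raw counts of exon reads for each gene, counts of uniquely mapped, intron and junction reads, and RPKM values with a decimal comma. Of the exon reads 78.2 to 87.2% mapped uniquely.

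Groups were taken from the labels. The 10 genes, the gene lists and the tests were chosen with earlier results of these data known. All 10 cytokine genes were named. So was every gene that passed in the lists of receptors, other cytokines, lineage factors, decay factors and cell markers, and up to 3 of the most abundant. Exon reads were fitted in R 4.3.3 by edgeR 4.0.16 after filterByExpr and TMM, using glmQLFit and glmQLFTest. The steps were tested on simulated data with less spread between libraries than in these data, which does not show what the tests can detect here. As alternatives, DESeq2 1.42.0 and limma 3.58.1 (on log2 RPKM with a pseudocount of 1 or 0.1) were run, and edgeR was run on library sizes alone, without a filter, with a minimum of 10 reads everywhere, on uniquely mapped reads, on other sets of libraries, with blocks and with each library left out. The counts of replicates differed far beyond sampling noise (chi-square per degree of freedom 94.6 to 209). Promoters are those of RefSeq, and 3′ UTRs were read from the GRCm38 reference. Tables and plots were made with Python 3.11.15.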

Additional observations from a re-analysis of the deposited data

How the results depend on the processing

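Ifng fell in all 16 alternatives of either comparison with activated T cells. The count of cytokine genes that fell was 3 to 5 of 10 in medium and 3 to 6 in co-culture across tools, scalings, filters and sets of libraries, and 1 to 5 and 3 to 4 with each library left out. In medium it was 2 without replicate 1 of the activated T cells, 2 without library a in medium and 1 (Ifng) without library b. In the other comparisons 0 of the 10 genes passed under each alternative. The cause of the changes given here was not tested.

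For the calls over all genes, T cells in medium against activated T cells gave 776, and 1948 by DESeq2, 1945 with no filter, 3089 with a block for the number series in the table names and 24 to 1067 with each library left out. The lowest were 62 without replicate 1 of the activated T cells and 57 and 24 without library a and b in medium. Co-cultured against activated T cells gave 1222, and in the same order 2345, 2425, 3662 and 266 to 1093, with 266 without replicate 1 of the activated T cells and 498 without co-cultured library b. Co-culture against medium gave 31, and 87 by DESeq2, 99 and 107 by limma with a pseudocount of 1 and 0.1, 141 with no filter, 0 with at least 10 reads in every library, 83 with all 10 libraries in the fit, 65 with the number series as a block and 16 to 52 with each library left out (16 and 19 without library b and a in medium, 52 without co-cultured library a). The keratinocyte groups gave 0, and 186 by DESeq2, 11 with no filter, 4 with all 10 libraries in the fit and 0 to 1164 with each library left out (1164 and 21 without co-cultured replicate 1 and 2).

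The replicate block, which pairs keratinocyte libraries by their number, called 2 genes and none of the cytokine genes. Numbers of libraries are not stated to mark a shared culture. As a hint from the data, deviations from group means correlated between all groups in the order of the number series (r = 0.191 to 0.716).

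Of the cytokine receptors 3 were called in any T-cell comparison, and 7 by DESeq2, 5 with no filter, 7 with the number series as a block and 1 to 5 with each library left out. Of the other T-cell cytokines 1 was called, and 5 by DESeq2, 7 by limma with either pseudocount, 4 with no filter, 2 with only the groups compared, 5 with the block and 0 to 2 with each library left out. For the lineage transcription factors 0 became 1 by DESeq2, with no filter or with only the groups compared, 2 with the block and 0 to 1 with each library left out. For the mRNA decay factors 2 became 1 with library size in place of TMM and 0 to 2 with each library left out.

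Directions turned for small or poorly covered differences. In co-culture against medium, Tnf turned from 0.17 to -0.0066 on the log2 scale by limma with a pseudocount of 0.1, Il10 from -0.0042 to 0.0026, 0.0024 and 0.0022 (at least 10 reads, all libraries, only these groups) and Il4 from 0.44 to -0.18 with the number series as a block. When single libraries were left out, log2 fold changes spanned 0 for Il4 and Il21 in medium (-1.24 to 1.90 and -1.84 to 1.04) and in co-culture (-0.96 to 2.35 and -1.81 to 1.08) against activated T cells. In co-culture against medium they spanned 0 for Ifng (-1.07 to 0.052), Il2 (-2.43 to 4.801), Csf2 (-3.19 to 4.32), Tnf (-2.02 to 1.97), Il10 (-0.23 to 0.23), Il4 (-1.06 to 1.79) and Il21 (-0.35 to 0.54). Between keratinocyte groups they did so for Ifng (-0.53 to 1.72), Tnf (-0.15 to 3.61), Lta (-0.78 to 1.62), Il21 (-1.40 to 2.03) and Lif (-0.88 to 0.75).

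In T cells, with at least 10 reads in every library Il2, Il3, Csf2, Il4 and Tnf could not be tested, and Il3 had no value in co-culture against medium. With 1 library left in a group, that library is assumed to vary like the others.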
